A study of Mus musculus with 96 samples.

Results

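The cells described here were control EL4 cells with high or low levels of Egr1, chosen by their measured Egr1 level itself. EL4 is a mouse T-lymphoma line of the C57BL/6 strain. A control cell was kept if 3000 or more genes had a value above 0, and within each control culture the cells were split at the culture's median Egr1 value in TPM (transcript share of each gene after allowing for its length, scaled to a fixed sum per cell). Cells above the median are called Egr1-high and cells at or below it Egr1-low. This gave 47 control cells of the 96 cells in the series, 23 of them Egr1-high and 24 Egr1-low.

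The study asked how knockdown of CTCF, a chromatin protein that holds DNA loops, changes the variation between cells. EL4 cells were infected with viral particles carrying GFP and a short hairpin RNA, against luciferase in the controls (shLuc, labelled wild type) or against Ctcf (shCTCF, CTCF-KD), and single cells were captured on the Fluidigm C1 system. Knockdown was checked in sorted GFP+ cells 5 days after infection, and 24 cells of the highest quality were taken from each circuit of captured cells. The controls were the cultures shLuc #1, of the initial experiment, and shLuc #2, of the second, and were meant to carry a hairpin and GFP like the others. Cultures shCTCF #1 and shCTCF #2 were split by Egr1 in the same way and used here for comparison only. Each culture was 1 circuit, so culture and circuit cannot be told apart, and the culture was taken as the replicate, not the cell.

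Egr1 is a zinc-finger transcription factor and a classic immediate early gene, that is, a gene switched on within minutes of a growth factor or antigen receptor signal without need for new protein. In T cells it lies downstream of the T-cell receptor, the ERK kinase cascade and the factor SRF, together with Fos, Junb, Egr2 and Nr4a1. Its mRNA is short-lived, and its protein binds GC-rich sites in promoters, including those of other genes of the same response and of Nab1 and Nab2, whose products repress its activity.

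To show the kind of site meant, the RefSeq promoter windows (GRCm38.p6, 250 bases before to 50 after each start site) of the immediate early and feedback genes tested below were searched for GCGGGGGCG or GCGTGGGCG on both strands. Of the 38 genes, 29 had a window and 6 of these held the letters. Each is printed with 10 bases on either side, 5′ to 3′ on the strand of its gene, with the matched letters in capitals.
Nab1, chr1:52500571-52500599, minus strand: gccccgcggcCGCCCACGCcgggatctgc
Nab1, chr1:52500539-52500567, minus strand: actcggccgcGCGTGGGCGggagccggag
Nab1, chr1:52500468-52500496, minus strand: gcggggcgggGCGGGGGCGgcggaggtgg
Nr4a1, chr15:101266776-101266804, plus strand: gcgtcagtggCGCCCCCGCccctctccat
Zfp36, chr7:28379315-28379343, minus strand: gagctacgccGCGGGGGCGcgtcccggaa
Fosb, chr7:19310077-19310105, minus strand: tgacgcaagcGCGGGGGCGggtcccggag
Fosl2, chr5:32136383-32136411, plus strand: ccggctgcgcGCGGGGGCGgaagggcgcg
Dusp2, chr2:127336051-127336079, plus strand: acgtgaagccGCGGGGGCGggcaccggcg
Nab1 held the letters at 3 positions and each of the other genes at 1. The same letters were in 3.47% of all 32851 promoter windows and in 7.24% of the 5831 tested genes with a window. A match describes the letters only and is not a measured binding site.

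The control cells had 143112 to 405404 reads, recovered as whole numbers from the TPM values, and 3525 to 6534 genes detected. The T-cell markers Cd3d, Cd3e, Cd3g, Lck, Gata3 and Ptprc had reads in all 47 control cells, at a median of 250.1 TPM for Cd3e and 2486 TPM for Cd3d, whereas Cd247 had reads in 9 cells. Of the markers of other cell types, 6 of 8 for B cells, 9 of 10 for myeloid cells and 4 of 7 for fibroblasts were at 0 in every control cell. All 6 erythroid genes found, of 8 listed, were at 0 too. The B-cell genes with reads were Cd79a in 1 cell and Cd22 in 3 cells. Ctcf, the gene targeted in the other cultures, had a median of 14.5 TPM in Egr1-high and 52.05 TPM in Egr1-low cells of shLuc #1, and of 26.8 and 15.3 TPM in shLuc #2.

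Egr1 was read in all 24 cells of shLuc #1 and in 21 of 23 cells of shLuc #2, with a wide range in both. In shLuc #1 it ran from 2.27 TPM over a median of 270.2 to 1192 TPM, and in shLuc #2 from 0 over 572.7 to 2734 TPM. The cells next to the split had 228.4 and 312.0 TPM in shLuc #1 and 572.7 and 607.6 TPM in shLuc #2. The chosen sets therefore differed in their medians by construction, 469.7 against 155.0 TPM in shLuc #1 and 1055 against 262.9 TPM in shLuc #2. The SD of log2(TPM + 1) over cells was 1.92 in shLuc #1, higher than in 51.1% of 223 genes of like mean level, and 2.87 in shLuc #2, higher than in 93.4% of 198 such genes. Ranking cells by RPM (reads scaled to a fixed total, with no allowance for length) instead of TPM moved no cell to the other set. The median cell held 100.5 Egr1 reads in shLuc #1 and 148.0 in shLuc #2. In the CTCF-KD cultures the medians were 113.2 TPM in shCTCF #1 and 97.1 TPM in shCTCF #2, and 4 and 3 cells had no Egr1 read.

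**Figure D1:**
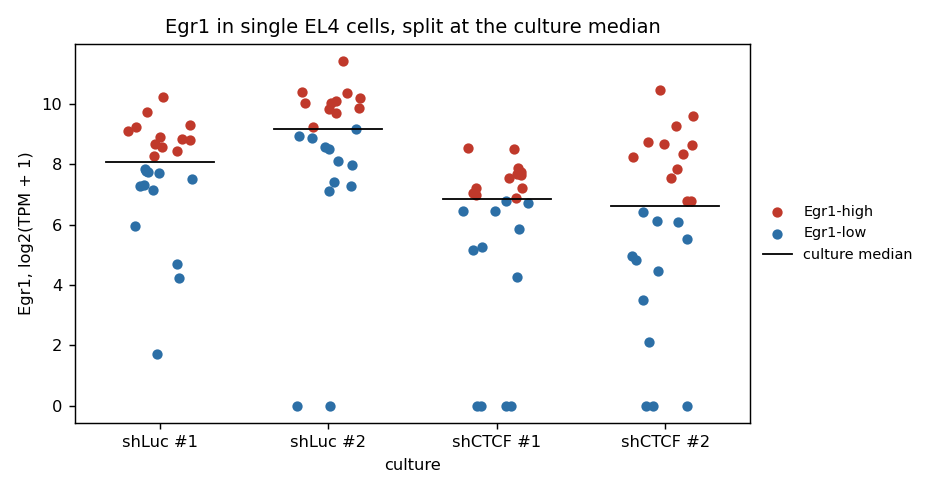
Egr1 level of each cell as log2(TPM + 1) (vertical axis) in the 4 cultures (horizontal axis), red above the culture median and blue at or below it, with the median as a line. Points lie on both sides of the median line in each culture by construction, and 2 cells of shLuc #2 and none of shLuc #1 sit at 0.

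Egr1-high and Egr1-low cells differed in genes detected in opposite directions in the control cultures. In shLuc #1, Egr1-high cells had 3525 to 6534 genes with a median of 4643, and Egr1-low cells 4239 to 6011 with a median of 4830. In shLuc #2, Egr1-high cells had 3634 to 6484 genes with a median of 5193, and Egr1-low cells 3630 to 6138 with a median of 4165. Egr1-high cells thus detected 187 fewer genes at the median in shLuc #1 and 1028 more in shLuc #2, with overlapping ranges in both. The mean of the differences was 420.5 genes (exact permutation test swapping the sets within cultures, two-sided, p = 1.0, n = 2 cultures, smallest possible p 0.5). After thinning every cell to 80000 reads the differences were -251 and 998 genes.

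Depth moved the other way. Egr1-high cells had a median of 265396 reads against 224232.5 in shLuc #1 and 204529 against 246926.5 in shLuc #2. The mean difference was -617 reads (exact permutation test, two-sided, p = 1.0, n = 2 cultures). Over cells, Spearman's rho of Egr1 with genes detected was -0.13 in shLuc #1 (n = 24) and 0.25 in shLuc #2 (n = 23), and with reads it was 0.29 and -0.35. Both members of each of these pairs come from the same library, and the values are given as a description.

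**Figure D2:**
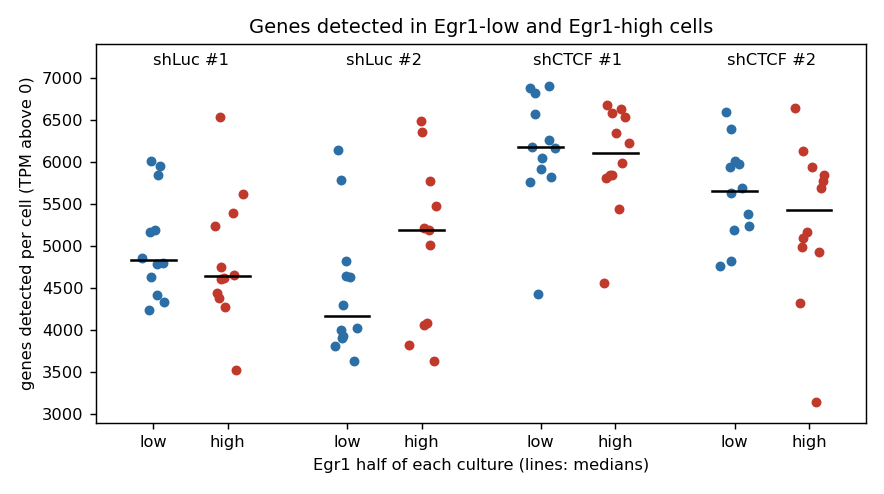
Genes detected per cell (vertical axis, TPM above 0) in Egr1-low (blue) and Egr1-high (red) cells of each culture (horizontal axis), with lines at the medians. In shLuc #2 the Egr1-high median of 5193 lies above the Egr1-low median of 4165, and in shLuc #1 the medians of 4643 and 4830 lie close together in the reverse order.

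No other gene passed the test between Egr1-high and Egr1-low control cells. For each gene the mean of log2(TPM + 1) was taken over the cells of each set, and limma compared the sets over both cultures with the culture as a block, over 7439 genes with a mean above 1 on that scale. At a Benjamini-Hochberg adjusted p under 0.05, limma called 0 genes higher (0% of those tested) and 0 genes lower (0%). No adjusted p was below 0.506. Without adjustment, 236 genes were higher (3.17%) and 96 lower (1.29%) at p under 0.05. Limma on the log2 of the mean TPM called 7, Acy3, AI413582, Il17f, Ly6g6c, Maged2, Mir7681 and Rnpepl1, named here after their values were seen.

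The excess of higher over lower genes moved with genes detected. Of the genes at an unadjusted p under 0.05, 71.1% were higher in Egr1-high cells, and 56.7% once genes detected were regressed out within each culture, which left 191 genes higher and 146 lower. The median difference over all genes was -0.08 in shLuc #1 and 0.27 in shLuc #2 on the log2 scale. The part of genes detected in the differences of single genes was not tested beyond this.

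The control cultures did not share a pattern of differences. Across the 7439 genes, Pearson's r between the differences in shLuc #1 and in shLuc #2 was -0.03 and Spearman's rho -0.03. The median absolute difference was 0.62 in shLuc #1 and 0.72 in shLuc #2, and the median absolute gap between the cultures was 0.98. In all, 2099 genes were higher in Egr1-high cells of both control cultures (28.2% of those tested) and 1492 lower in both (20.1%).

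**Figure D3:**
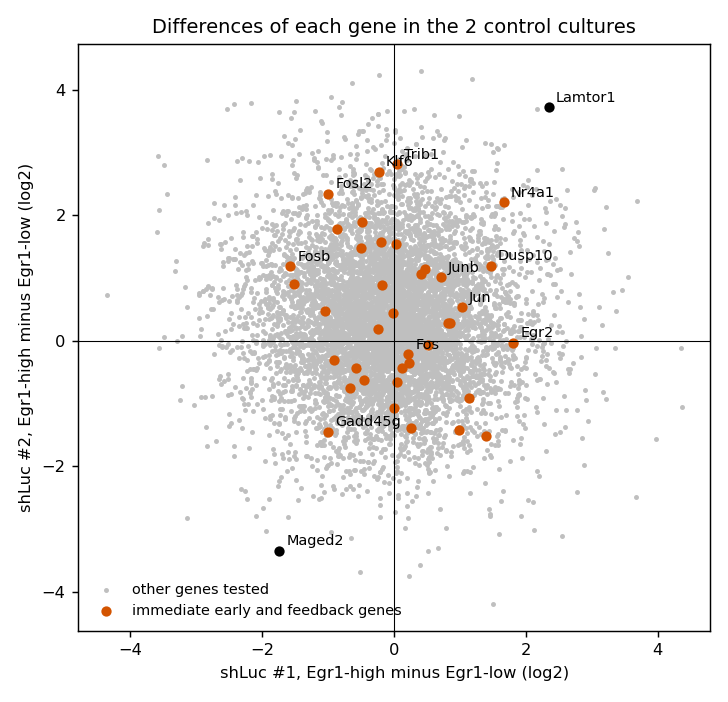
Difference in mean log2(TPM + 1) between Egr1-high and Egr1-low cells in shLuc #1 (horizontal axis) and shLuc #2 (vertical axis), with 1 point per gene tested and the immediate early and feedback genes in orange. The cloud has no visible tilt (Pearson's r -0.03), and the orange points spread in all directions from 0.

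The gene with the highest statistic was Lamtor1 (chr7:101905904-101926675, GRCm38), which encodes part of the Ragulator complex that anchors mTORC1 to the lysosome. In shLuc #1, Egr1-high cells had 35.5 to 917.5 TPM with a median of 245.8, and Egr1-low cells 0 to 720.3 with a median of 209.0. In shLuc #2, Egr1-high cells had 9.36 to 655.7 TPM with a median of 215.6, and Egr1-low cells 0 to 457.7 with a median of 8.24. Every Egr1-high cell had Lamtor1 reads, against 17 of 24 Egr1-low cells, but the ranges overlapped. The difference was 2.34 in shLuc #1 and 3.72 in shLuc #2, a mean of 3.03 ± 0.69 (moderated SE) on the log2(TPM + 1) scale (limma, adjusted p = 0.506). Limma took most of that SE from the spread over genes (46.6 prior degrees of freedom), not from the gap between the 2 cultures. In the CTCF-KD cultures the difference was -1.21 and 0.02. Lamtor1 overlaps Tomt and Lrrc51 on the opposite strand.

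The other genes with the highest statistics and the same sign in both control cultures were Snora70, Rnpepl1, Akip1, Psmc4, Ogfod3, Tbcd, Prdx3, Nelfcd and Spag7. Psmc4 encodes an ATPase of the proteasome and Prdx3 a mitochondrial peroxiredoxin, and their differences were 2.36 and 2.23 for Psmc4 and 0.41 and 4.30 for Prdx3. Several of these rested on cells with and without reads. Rnpepl1 had reads in 5 of 12 Egr1-high and 0 of 12 Egr1-low cells of shLuc #1, and in 6 of 11 and 2 of 12 cells of shLuc #2. Snora70, a small nucleolar RNA, lies within the ribosomal protein gene Rpl10 on the same strand. Its differences were 2.45 and 2.26 and those of Rpl10 -0.21 and 1.57, and whether they shared reads was not tested. Of the 10 genes with Lamtor1, 4 were lower in both CTCF-KD cultures (40%), beside 32.5% of all genes, and 2 higher (20%), beside 18.9%. The lower ones were Ogfod3, Prdx3, Tbcd (by 0.99 and 2.97) and Nelfcd (by 0.46 and 1.92). The higher ones were Rnpepl1 (by 0.28 and 0.32) and Akip1 (by 0.66 and 1.30).

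At the other end stood Maged2, Rpp25l, Perp, Bckdk, Klk1b27, Pafah1b3, Puf60, Osgep, Blvra and Tespa1. Maged2 had reads in 1 of 23 Egr1-high and 9 of 24 Egr1-low control cells, so most cells of both sets were at 0. Tespa1, which encodes a protein of T-cell receptor signalling in thymocytes, differed by -2.33 and -2.35. Klk1b27 belongs to a family of near-identical kallikrein genes. The study's methods allowed only uniquely mapped reads, so reads matching several of these genes could be lost. All 10 had limma adjusted p-values from 0.828 upwards.

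Perp (chr10:18845020-18857073, GRCm38), a membrane protein gene induced by p53, was below 0 in all 4 cultures. In shLuc #1, Egr1-high cells had 20.8 to 8386 TPM with a median of 774.9, and Egr1-low cells 329.6 to 3224 with a median of 982.7. In shLuc #2, Egr1-high cells had 0 to 3129 TPM with a median of 554.2, and Egr1-low cells 30.6 to 6044 with a median of 648.0. The ranges overlapped almost whole, and the medians were lower in Egr1-high cells of both cultures. The mean TPM was higher in Egr1-high cells of shLuc #1, 1546 against 1283, and lower in shLuc #2, 711.8 against 2016. The differences of mean log2(TPM + 1) were -0.89 and -1.43 in the control cultures and -0.67 and -0.85 in the CTCF-KD cultures. Over all 4 cultures the mean was -0.96 and the unadjusted p 0.00021, with an adjusted p of 0.999 (limma).

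Pmvk, the phosphomevalonate kinase of cholesterol synthesis, was below 0 in every culture too. Its differences were -1.68 and -1.87 in the control cultures and -1.24 and -2.60 in the CTCF-KD cultures. In shLuc #1 it had reads in 8 of 12 Egr1-high cells, from 0 over a median of 81.7 to 3371 TPM, and in 11 of 12 Egr1-low cells, from 0 over 309.2 to 1138 TPM. In shLuc #2 it had reads in 7 of 11 and 10 of 12 cells, with medians of 29.8 and 187.4 TPM. The medians were lower in Egr1-high cells and the ranges overlapped (limma over 4 cultures, adjusted p = 0.999). Across all genes 394 (5.3%) were higher in all 4 cultures and 474 (6.37%) lower.

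Genes that differed in 1 direction in the control cultures did so in the CTCF-KD cultures about as often as genes in general. The choice of the control sets did not use the CTCF-KD cells. Of the 2099 genes higher in both control cultures, 394 were higher in both CTCF-KD cultures, which is 18.8%, against 18.9% (1405) of all genes tested. Of the 1492 genes lower in both control cultures, 474 were lower in both CTCF-KD cultures, which is 31.8%, against 32.5% (2416) of all genes tested. Among the 236 genes higher at an unadjusted p under 0.05 the share was 13.1%, and among the 96 lower it was 36.5%. Both shares of the larger sets lie close to their backgrounds.

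Limma over all 4 cultures called 0 genes higher (0%) and 0 lower (0%), with 148 higher and 178 lower at an unadjusted p under 0.05. The test of the difference between CTCF-KD and control called 0 genes (0%), with 78 and 301 genes at an unadjusted p under 0.05. In the CTCF-KD cultures taken alone, limma called 1 gene higher (0.0134%) and 0 lower (0%). It was Snora31, at 2.78 in shCTCF #1 and 3.39 in shCTCF #2 (limma, adjusted p = 0.00642), and at -0.53 and 0.27 in the control cultures. Snora31 lies within Tpt1 on the same strand, and its call was lost under most other settings, including without 1 Egr1-high cell of shCTCF #2 that stood apart (0 genes called higher or lower by limma, with 154 and 245 at an unadjusted p under 0.05). That cell had 41591 reads and 3150 genes detected. It held 16529 TPM of the ribosomal RNA gene Rn45s and 38862 TPM of the nuclear RNA Malat1, against at most 2563 and 5882 TPM in the other Egr1-high cells of its culture.

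The immediate early genes as a group did not stand out in Egr1-high control cells. The lists held 70 genes besides Egr1, of which 17 were at 0 in every control cell and 38 passed the filter on level. Of these 38, 10 were higher in both control cultures and 5 lower in both, which is 26.3% and 13.2%, beside 28.2% and 20.1% of all genes. Their median difference was 0.03 in shLuc #1 and 0.37 in shLuc #2, beside -0.08 and 0.27 for all genes. Limma called 0 of them, and 1 of the 38, Nr4a1, was higher at an unadjusted p under 0.05. Of all genes tested, 3.17% were higher and 1.29% lower at that threshold.

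Nr4a1 (chr15:101254269-101274795, GRCm38) encodes the nuclear receptor Nur77, whose level is widely used as a readout of T-cell receptor signalling. In shLuc #1, Egr1-high cells had 7.99 to 680.6 TPM with a median of 164.3, and Egr1-low cells 0 to 916.8 with a median of 73.8. In shLuc #2, Egr1-high cells had 71.7 to 868.2 TPM with a median of 212.2, and Egr1-low cells 0 to 836.1 with a median of 110.8. All 23 Egr1-high cells had Nr4a1 reads, against 19 of 24 Egr1-low cells, and the upper ends of the ranges overlapped. The differences were 1.67 and 2.21, a mean of 1.94 ± 0.66 (moderated SE) with an unadjusted p of 0.00518 and an adjusted p of 1.0 (limma). In shCTCF #1 the difference was 1.52 and in shCTCF #2 it was -0.73. Its promoter window, printed above, held the EGR letters at 1 position.

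Of the EGR family and its corepressors, Egr2 and Nab1 passed the filter, and Egr3, Egr4 and Nab2 did not. Egr2, the closest relative of Egr1 in this response, had a difference of 1.81 in shLuc #1 and -0.03 in shLuc #2, and of 1.14 and 1.27 in the CTCF-KD cultures. In shLuc #1 it had reads in all 12 Egr1-high and 8 of 12 Egr1-low cells, at medians of 61.4 and 19.3 TPM. In shLuc #2 it had reads in 8 of 11 and 9 of 12 cells, at medians of 16.7 and 35.7 TPM. Its median and its mean of log2(TPM + 1) were higher in Egr1-high cells of shLuc #1 only, with overlapping ranges in both cultures. The mean TPM was higher in Egr1-high cells of both, 87.7 against 58.6 in shLuc #1 and 71.8 against 66.5 in shLuc #2. Nab1, with the most copies of the EGR letters and named after its values were seen, was below 0 in all 4 cultures, at -0.46, -0.62, -0.69 and -1.65.

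The AP-1 genes, whose products pair as Fos and Jun dimers, were mixed. Junb, on chromosome 8, differed by 0.71 in shLuc #1 and 1.01 in shLuc #2, and by 0.21 and 0.84 in the CTCF-KD cultures. Its Egr1-high cells had 2.65 to 567.0 TPM with a median of 132.1 in shLuc #1 and 0 to 175.0 with a median of 77.4 in shLuc #2, and its Egr1-low cells 0 to 825.0 with a median of 51.7 and 0 to 325.9 with a median of 17.9. The medians were higher in Egr1-high cells of both cultures, and the highest single cells were Egr1-low in both (limma, adjusted p = 1.0). The mean TPM of Junb was lower in Egr1-high cells of both, 151.6 against 169.6 in shLuc #1 and 67.9 against 83.1 in shLuc #2. Junb overlaps Prdx2 on the opposite strand. Jun differed by 1.03 and 0.53. Fos and Fosb are named after their values were seen. Fos, with reads in all 47 control cells, had medians of 783.4 TPM in Egr1-high and 1006 TPM in Egr1-low cells of shLuc #1, and of 1462 and 1388 TPM in shLuc #2. Its differences of mean log2(TPM + 1) were 0.21 and -0.21, opposite in sign to the differences of the medians in both cultures. Fosb was at -1.57 and 1.19. Of the 6 AP-1 genes tested, 2 were higher and 0 lower in both control cultures. These are 33.3% and 0%, beside 28.2% and 20.1% of all genes.

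The remaining members named had the largest or smallest control differences of the lists. Trib1, a pseudokinase gene, was at 0.05 and 2.82. Dusp10, a phosphatase of the stress kinases JNK and p38, was at 1.46 and 1.20 in the controls and at -0.75 and -1.11 in the CTCF-KD cultures. Klf6, a zinc-finger factor, was at -0.24 and 2.69, and the growth arrest gene Gadd45a at 0.46 and 1.15. Its relative Gadd45g was at -1.01 and -1.45, the clock gene Per1 at -0.66 and -0.76, the mRNA decay factor Zfp36l1 at -0.91 and -0.31, and the ERK phosphatase Dusp2 at 0.26 and -1.39. Among these 8 genes, Klf6 and Dusp2 changed sign between the control cultures. Of the 5 ERK feedback genes tested, 2 were higher (40%) and 0 lower (0%) in both control cultures. Of the 25 other immediate early genes tested, 6 were higher (24%) and 4 lower (16%). These stand beside 28.2% and 20.1% of all genes.

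In the CTCF-KD cultures, 19 of the 38 genes were higher in Egr1-high cells of both cultures and 5 lower in both, which is 50.0% and 13.2%, beside 18.9% and 32.5% of all genes tested. Without the cell of shCTCF #2 that stood apart the counts were 19 and 5 again, beside 21.4% and 29.2% of all genes. Whether these shares differed from those of the controls was not tested. Fos was at 1.94 and 1.56 there and Fosb at 2.55 and 2.20, and without that cell the values in shCTCF #2 were 1.20 and 1.79. The limma p for each in the CTCF-KD fit was 0.00238 unadjusted and 0.489 adjusted. The test of the difference from the controls gave adjusted p-values of 0.949 for both, so a difference between conditions was not shown. The lists were chosen with results of these data known, and their counts carry no test.

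**Figure D4:**
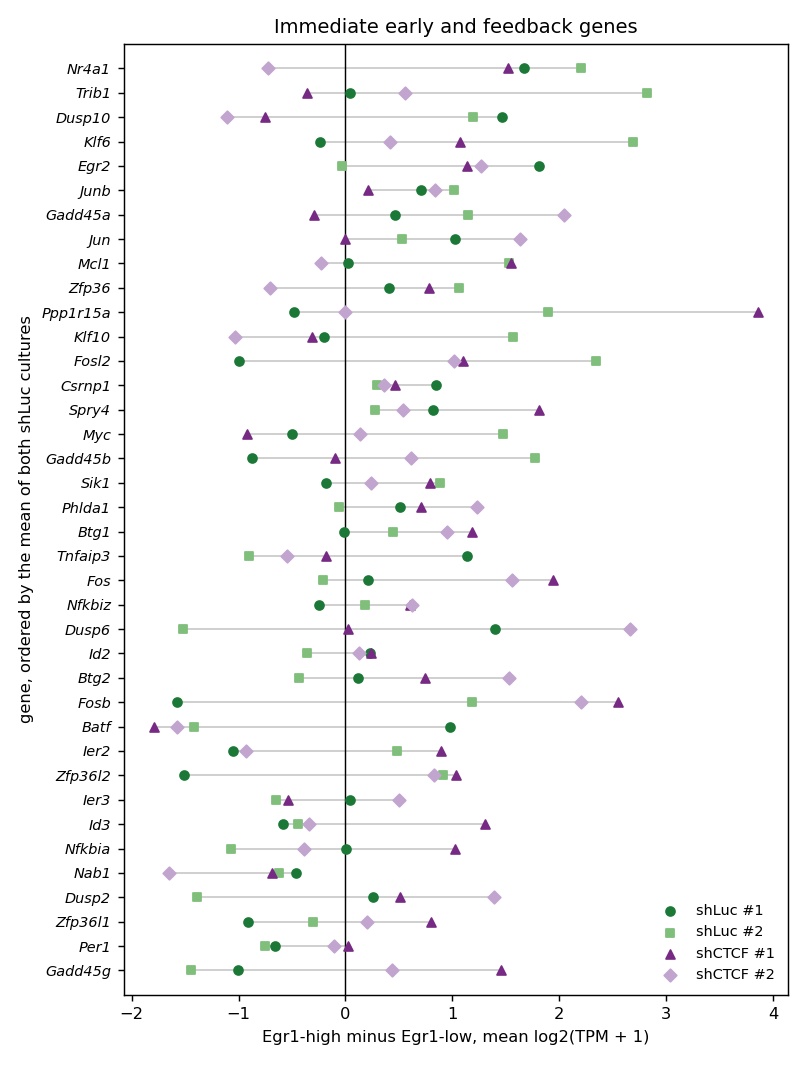
Difference in mean log2(TPM + 1) between Egr1-high and Egr1-low cells (horizontal axis) for the 38 immediate early and feedback genes tested (vertical axis), with green points for the shLuc and purple for the shCTCF cultures. Nr4a1 leads with 1.67 and 2.21 in the controls, and for most genes the line joining the 4 cultures crosses 0.

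Genes upstream of Egr1 were not higher more often than genes in general. Of 21 tested genes of the ERK cascade and the SRF pathway, 3 were higher and 5 lower in both control cultures. These are 14.3% and 23.8%, beside 28.2% and 20.1% of all genes. Mkl2, with the highest statistic of this list, was at 1.10 and 1.18, with reads in 11 of 23 Egr1-high and 4 of 24 Egr1-low cells. Rasgrp1, which activates Ras in T cells, was at 0.80 and 1.11. Its medians were 162.7 against 92.5 TPM in shLuc #1 and 359.3 against 174.4 TPM in shLuc #2. Sos2, another Ras activator, was at -1.69 and -0.70. Of 15 genes of the T-cell receptor and proximal signalling, 2 were higher and 3 lower.

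Cd5 and Cd69, surface proteins whose levels follow T-cell receptor signals, lay above 0 in both control cultures. Cd69 was at 0.61 and 1.41 (limma, unadjusted p 0.0232, adjusted p 1.0) and at 3.51 and -0.05 in the CTCF-KD cultures. Its medians were 404.4 against 281.2 TPM in shLuc #1 and 874.0 against 904.0 TPM in shLuc #2, so in shLuc #2 the median and the mean of logs differed in sign. Cd5 was at 1.45 and 1.48, with reads in 8 of 12 and 6 of 12 cells of shLuc #1 and in 8 of 11 and 7 of 12 cells of shLuc #2, and at -0.69 in each CTCF-KD culture. Cd3g, a chain of the receptor complex, was at -0.50 and -0.57 (unadjusted p 0.0138, limma adjusted p 1.0). The summed TPM of the T-cell markers was lower in Egr1-high cells at the median, 7793 against 8340 in shLuc #1 and 7372 against 9319 in shLuc #2 (exact permutation test, two-sided, p = 0.5, the smallest that 2 cultures allow).

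Genes for making ribosomes had the largest share of members higher in both control cultures among the lists with 10 or more tested members. Of 43 tested, 19 were higher and 4 lower in both control cultures, which is 44.2% and 9.30%, beside 28.2% and 20.1% of all genes. With genes detected regressed out, 8 were higher and 7 lower, which is 18.6% and 16.3%, beside 24.7% and 24.3% of all genes under that setting. Heatr1 and Rrp12, which act in ribosome assembly in the nucleolus, differed by 2.54 and 1.99 and by 1.34 and 2.11 (limma, adjusted p = 1.0 for both). Heatr1 had reads in 17 of 23 Egr1-high and 7 of 24 Egr1-low cells, at medians of 11.1 against 0 TPM in shLuc #1 and 13.1 against 0 TPM in shLuc #2. Heatr1 overlaps Lgals8 on the opposite strand. In the CTCF-KD cultures 6 of the 43 genes were higher in both and 15 lower in both, which is 13.95% and 34.9%, beside 18.9% and 32.5% of all genes.

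Cell-cycle genes were counted in lists for G1/S and G2/M. Of 33 G1/S genes, 13 were higher and 5 lower in both control cultures, and of 47 G2/M genes, 7 were higher and 13 lower, beside 28.2% and 20.1% of all genes. With genes detected regressed out the counts were 10 and 8 for G1/S and 2 and 16 for G2/M, beside 24.7% and 24.3% of all genes. In the CTCF-KD cultures 3 G1/S genes were higher in both and 18 lower, and 2 G2/M genes were higher and 21 lower, beside 18.9% and 32.5% of all genes. A difference between the lists was not tested. Gtse1, a G2/M gene that binds p53, had reads in 8 of 23 Egr1-high and 14 of 24 Egr1-low cells, and differed by -3.24 and -0.94 (limma, unadjusted p 0.0204, adjusted p 1.0). The summed TPM of the G2/M genes had a higher median in Egr1-high cells of shLuc #1, 3484 against 1948, and a lower one in shLuc #2, 3784 against 4471, while the means were lower in both. No call was made for either list.

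The other lists gave no gene past the adjusted threshold. Their shares below stand beside 28.2% of all genes higher and 20.1% lower in both control cultures. Of 16 heat shock genes, 6 were higher and 4 lower in both control cultures, and the chaperone adaptor Stip1 was below 0 in all 4 cultures, at -1.08, -1.15, -0.26 and -1.44. Of 19 glycolysis genes, 7 were higher and 3 lower, and of 20 cholesterol synthesis genes, 7 and 3. Eno3 was at 1.04 and 0.91, and Aldoa, at medians of 20246 against 26687 TPM in shLuc #1, at -0.18 and -0.11. Of 17 integrated stress response genes, 2 were higher and 3 lower, of 16 T-lineage transcription factors, 3 and 2, of 10 p53 targets, 1 and 1, of 5 T-cell activation targets, 2 and 0, and of 82 cytosolic ribosomal protein genes, 18 and 20. Gata3 was at 0.28 and 0.33, Thy1 at 0.08 and -0.02, Cd28 at -0.31 and 0.04, and the reference gene Gapdh at 0.04 and 0.25.

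**Figure D5:**
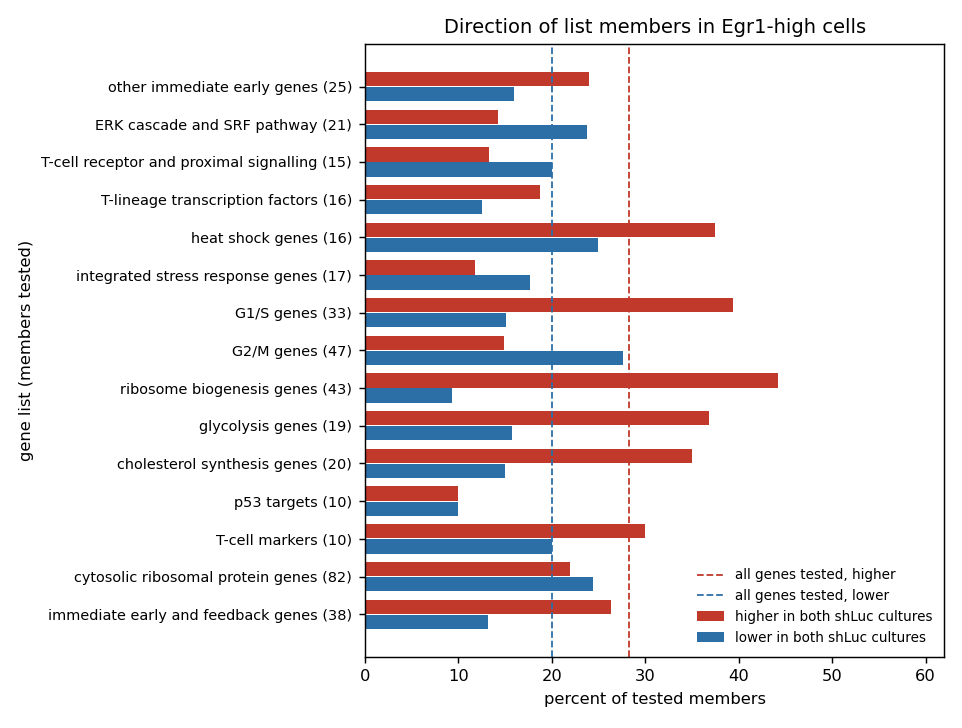
Share of tested members (horizontal axis, percent) of each gene list (vertical axis, number tested in brackets) that were higher (red bars) or lower (blue bars) in Egr1-high cells of both shLuc cultures, for lists with 10 or more tested members. The dashed lines mark 28.2% and 20.1%, the shares of all genes tested, and the longest red bar is that of the ribosome biogenesis genes at 44.2%.

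Genes with EGR letters in the promoter were higher about as often as genes in general, and lower less often. Of 422 such genes tested, 118 were higher in both control cultures and 67 lower. These are 27.96% and 15.9%, beside 28.2% and 20.1% of all genes, and the gap was not tested. Only 5831 of the 7439 genes tested had a promoter window, so the background includes genes that could not hold a match. The median difference of the 422 genes over both cultures was 0.13 on the log2 scale, beside 0.10 for all genes. For 236 genes with the CRE letters TGACGTCA the counts were 74 (31.4%) and 50 (21.2%). For 228 genes with the AP-1 letters TGAGTCA or TGACTCA they were 69 (30.3%) and 43 (18.9%).

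The genes whose levels ranked most like Egr1 over control cells were Brix1, Heatr1, Opa1, Cul3, Ogfod3, Phip, Tfb2m and Cdc25a, by the mean of Spearman's rho within shLuc #1 (24 cells) and shLuc #2 (23 cells). Brix1, a ribosome assembly factor, had a rho of 0.46 in shLuc #1 and 0.52 in shLuc #2, and of 0.07 and -0.09 in the CTCF-KD cultures. Heatr1 had 0.53 and 0.45, and -0.50 and 0.32 in the CTCF-KD cultures. These were chosen as the highest of 7439 genes, and cells share their culture and their depth, so the values are a description.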

How the data were processed

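Single-cell RNA-seq of 96 EL4 cells was used. According to its methods, reads were mapped with STAR on GRCm38.89 and counted by HTSeq, and the authors deposited the values of 24057 genes as TPM, to which their own filter on cells had not been applied. The hairpin carriers are called lentiviral and retroviral in the sources. Cells with fewer than 3000 genes above 0 were left out, which removed 1 cell of shLuc #2 with 81 genes. Whole reads were recovered from the deposited TPM values by finding, for each gene, the step of which all its values are multiples (tolerance 0.001), which succeeded for all 13334 genes with a value. Since the sources mention no molecular identifiers, reads cannot be taken as independent molecules.

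Values of log2(TPM + 1) were averaged over the cells of each set and compared with limma 3.58.1 (R 4.3.3, eBayes with trend), with the culture as a block since both sets come from the same culture, and with Benjamini-Hochberg adjustment over 7439 genes. A gene was tested if its mean over control cells was above 1, with Egr1 left out. Differences on this scale understate those of low genes. Single values per culture were compared by exact permutation. Genes without a strand-aware count stated in the sources can share reads with genes on the opposite strand. The read recovery and the limma fit were tested on simulated data.

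Named genes were Egr1, the 10 highest and 10 lowest limma statistics with 1 sign in both control cultures, the 8 largest and 4 smallest differences of the immediate early and feedback lists, the 2 highest and 2 lowest members of the other lists, the genes Ctcf, Junb, Gata3, Cd28, Thy1, Cd5 and Gapdh, and the 8 highest correlations with Egr1. The cells and the lists were chosen with earlier results of these data known. Utp4, Eno1, Trbc1, Trbc2, Trac, Hbb-bt and Hba-a1 were not found under these names. Coordinates are those of GENCODE M21, and promoter windows those of RefSeq.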

Additional observations from a re-analysis of the deposited data

How the results depend on the processing

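Limma called 0 genes in the control cultures under every alternative that was run except the log2 of the mean TPM, which called 7, and 0 genes over all 4 cultures under each alternative run for them. The difference between conditions gave 0 under each alternative it was fitted for, which left out the fits without the block and with cells as units. The fit with cells as units describes these cells, not the cultures. The 1 gene called in the CTCF-KD cultures became 0 without the culture as a block, with eBayes without trend, with the log2 of the mean TPM, at a pseudocount of 0.1, with a filter of 2 cells or none, with genes detected regressed out, with the middle cells of each culture left out of the split, after thinning to 80000 reads, in RPM, with cells as units, and without the shallowest cell of shCTCF #2 (an alternative chosen after seeing the data), and became 6 at a pseudocount of 10. The cause was not tested. Without the block the control count was 0 too, with 163 genes higher and 63 lower at an unadjusted p under 0.05. The difference in genes detected ranged from -187 without shLuc #2 to 1028 without shLuc #1, so its direction rests on shLuc #2, and the difference in reads from -42397.5 to 41163.5. As a difference of means the latter was 5713 reads in place of -617. Leaving out 1 control culture leaves no residual degrees of freedom in the control fit, so it gave values with no test. A split of cells with Egr1 reads against cells with none was not run, since all 24 cells of shLuc #1 had reads. Of 95 named genes, 15 changed sign in the controls under some setting that kept both cultures. Whether zeros reflect depth was not tested, and with 2 cultures a single value cannot reach p under 0.5 in the exact permutation test.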
